A study of Mus musculus with 18 samples.

Results

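The genes that oxidize alcohols, aldehydes and retinal followed here in mouse liver were the alcohol dehydrogenases Adh1, Adh4 and Adh5, the aldehyde dehydrogenases Aldh1a1, Aldh1a7, Aldh1b1, Aldh2 and Aldh3a2, and the aldehyde oxidases Aox1 and Aox3. They were chosen by symbol, and all 10 were found among the 19057 rows of the expression table. Liver RNA of 18 ICR mice aged 10 weeks was sequenced, with 3 mice in each of 6 groups, to ask how a transplant of gut microbiota acts on a liver exposed to streptozotocin (STZ), a chemical that destroys the insulin-producing cells of the pancreas and so gives a model of type 1 diabetes. Each value is an RPKM, the reads of a gene divided by the length of its transcript and by the size of the library.

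The Con group received a regular diet and saline, and the STZ group a single injection of STZ at the start of the experiment. A10-FMT mice received STZ and then, by mouth, intestinal content from donor mice that had been dosed with alginate oligosaccharide (AOS) at 10 mg/kg, while Con-FMT mice received STZ and content from control donors. 2 more groups were known from the sample labels alone: AOS at 10 mg/kg without STZ, and STZ+AOS, which combined STZ with AOS at 10 mg/kg. The route and length of AOS dosing were not stated for the last pair of groups. The mice were males by the methods of the study, and no gene was altered in any group. As a model the study is limited by the use of 1 chemical injury, and by donor content that was pooled within each donor group, so that the recipients of a group shared 1 inoculum. No cage, litter or batch was given in the sources used here, so p-values measure the spread between these mice.

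Alcohol dehydrogenases turn an alcohol into an aldehyde with NAD+, and aldehyde dehydrogenases carry the aldehyde on to an acid. In liver this pair of steps clears ethanol, and the same kind of chemistry turns retinol into retinal and then into retinoic acid, the ligand of the retinoic acid receptors. Aldehyde oxidases also make acids from aldehydes, but with molecular oxygen and a molybdenum cofactor in place of NAD+, and they are known for the oxidation of drugs.

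By GENCODE M21 on GRCm38, the build that the labels call mm10, several of the genes are neighbours. Adh1 (chr3:138260991-138290698), Adh4 (chr3:138415466-138430892) and Adh5 (chr3:138443093-138455499) lie on the plus strand of chromosome 3, with 12200 bases between Adh4 and Adh5. Aox1 (chr1:58029931-58106413) is followed on the same strand by Aox3 (chr1:58113130-58200698) after 6716 bases. Aldh1a1 (chr19:20492715-20643465, plus strand) and Aldh1a7 (chr19:20692953-20727562, minus strand) are 49487 bases apart. Aldh1b1 (chr4:45799022-45804604), Aldh2 (chr5:121566027-121593824) and Aldh3a2 (chr11:61223417-61267464) each lie alone.

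RefSeq promoter windows (GRCm38.p6) were found for 9 of the 10 genes, all but Aldh2. The bases before the annotated start are shown for Aldh1b1, which was higher in STZ, A10-FMT and Con-FMT than in Con, for the neighbours Aox1 and Aox3, of which Aox3 but not Aox1 was called in STZ against Con, and for Adh4, the gene with a searched motif. Each is the plus strand, 5′ to 3′, without bases that GENCODE places inside the gene, and capitals mark the motif AGGTCA.
Aldh1b1, chr4:45798772-45799021: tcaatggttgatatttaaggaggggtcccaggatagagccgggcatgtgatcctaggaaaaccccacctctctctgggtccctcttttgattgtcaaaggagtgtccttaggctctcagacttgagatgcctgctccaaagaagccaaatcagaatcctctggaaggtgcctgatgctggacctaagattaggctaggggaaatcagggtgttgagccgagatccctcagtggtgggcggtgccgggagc
Aox1, chr1:58029719-58029930: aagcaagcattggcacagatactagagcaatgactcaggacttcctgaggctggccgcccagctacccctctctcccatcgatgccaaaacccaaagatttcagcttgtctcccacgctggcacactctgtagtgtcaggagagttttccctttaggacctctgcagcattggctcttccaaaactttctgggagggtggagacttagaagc
Aox3, chr1:58112886-58113129: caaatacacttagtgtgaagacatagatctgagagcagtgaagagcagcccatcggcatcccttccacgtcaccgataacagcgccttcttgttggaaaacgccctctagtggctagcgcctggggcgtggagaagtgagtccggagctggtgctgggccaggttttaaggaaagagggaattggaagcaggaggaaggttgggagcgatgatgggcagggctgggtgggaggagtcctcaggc
Adh4, chr3:138415247-138415465: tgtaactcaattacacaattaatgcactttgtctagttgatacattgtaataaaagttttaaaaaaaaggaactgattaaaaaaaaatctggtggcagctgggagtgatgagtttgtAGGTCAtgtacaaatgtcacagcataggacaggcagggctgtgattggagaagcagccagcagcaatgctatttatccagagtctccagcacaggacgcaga
The 250 bases before each start were searched on both strands for AGGTCA, a half-site of nuclear receptors, for TGACNNNGC, the core of the antioxidant response element, and for TGTTTAC, a forkhead motif. Adh4 held AGGTCA at 2 places, beginning 133 and 11 bases before its start, the second of them in bases that GENCODE gives to the gene. None of the 3 motifs was found in the other windows of the 9 genes. The windows of Adh1 (chr3:138277335-138277584) and Aldh3a2 (chr11:61267187-61267436) lay wholly in bases that GENCODE gives to the gene. The same held for a second window of Aldh1a1 (chr19:20601718-20601967). The bases before the GENCODE starts of Adh1 and Aldh3a2 were thus not searched. Among 32851 promoter windows of this length, 14.0% held AGGTCA, 10.2% held TGACNNNGC and 3.17% held TGTTTAC. The windows before Aox1 and Aox3 shared no run longer than 7 bases. A match is a description of the letters and not evidence of binding.

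The sum of RPKM over all genes ran from 621121 to 806937 and was highest in Con (749557 to 806937, against 631126 to 684659 in STZ). Steps between the lowest values of 18 genes put the depths of the libraries at 0.929 to 1.09 relative to each other. This relative depth was 1.03 to 1.09 in Con and 0.936 to 0.994 in STZ, without overlap. It was 1.04 to 1.09 in AOS and 0.929 to 0.977 in STZ+AOS, also without overlap. In A10-FMT it was 0.967 to 0.984, and in Con-FMT 0.944 to 1.03. The part of depth in the differences between groups was not tested. The number of reads was not given. Of the 3 STZ mice, mouse 3 most often lay nearest to the mean of Con, in 7 of the 10 genes and in 55.5% of 10602 genes tested. Results that rest on this mouse are therefore given with and without it. It was picked by these same values, so leaving it out tends by construction to widen the gap between STZ and Con. Calls gained in that way are a description and not added support. Liver markers were high, with a sum of 8 hepatocyte markers of 35610 to 66860 RPKM over all libraries and none of them at 0 in any group. In whole liver, fewer cells of a type and less RNA per cell cannot be told apart.

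In Con liver the 10 genes spanned a wide range of RPKM, a scale that accounts for transcript length. Adh1, the class I enzyme for ethanol and retinol, was the highest at 992 ± 213 RPKM (SD, n = 3), followed by Aldh1a1 at 519 ± 9.95 RPKM and mitochondrial Aldh2 at 461 ± 83.8 RPKM. The ranges of Aldh1a1 and Aldh2 overlapped, as did those of Adh5 (197 ± 21.9 RPKM) and Aox3 (182 ± 29.0 RPKM). Every other neighbour in the order was separated without overlap: Adh4 at 112 ± 2.92 RPKM, Aldh1a7 at 69.9 ± 6.38 RPKM, Aldh3a2 at 39.1 ± 7.36 RPKM, Aldh1b1 at 24.8 ± 1.53 RPKM and Aox1 at 19.9 ± 1.96 RPKM. Adh1 made up 34.6% to 40.7% of the summed level of the 10 genes in Con and 40.7% to 57.2% in STZ. The sum itself was 2236 to 2944 RPKM in Con and 3069 to 4124 RPKM in STZ, without overlap (exact permutation test, two-sided, p = 0.1, the smallest that 3 against 3 mice allow).

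**Figure D1:**
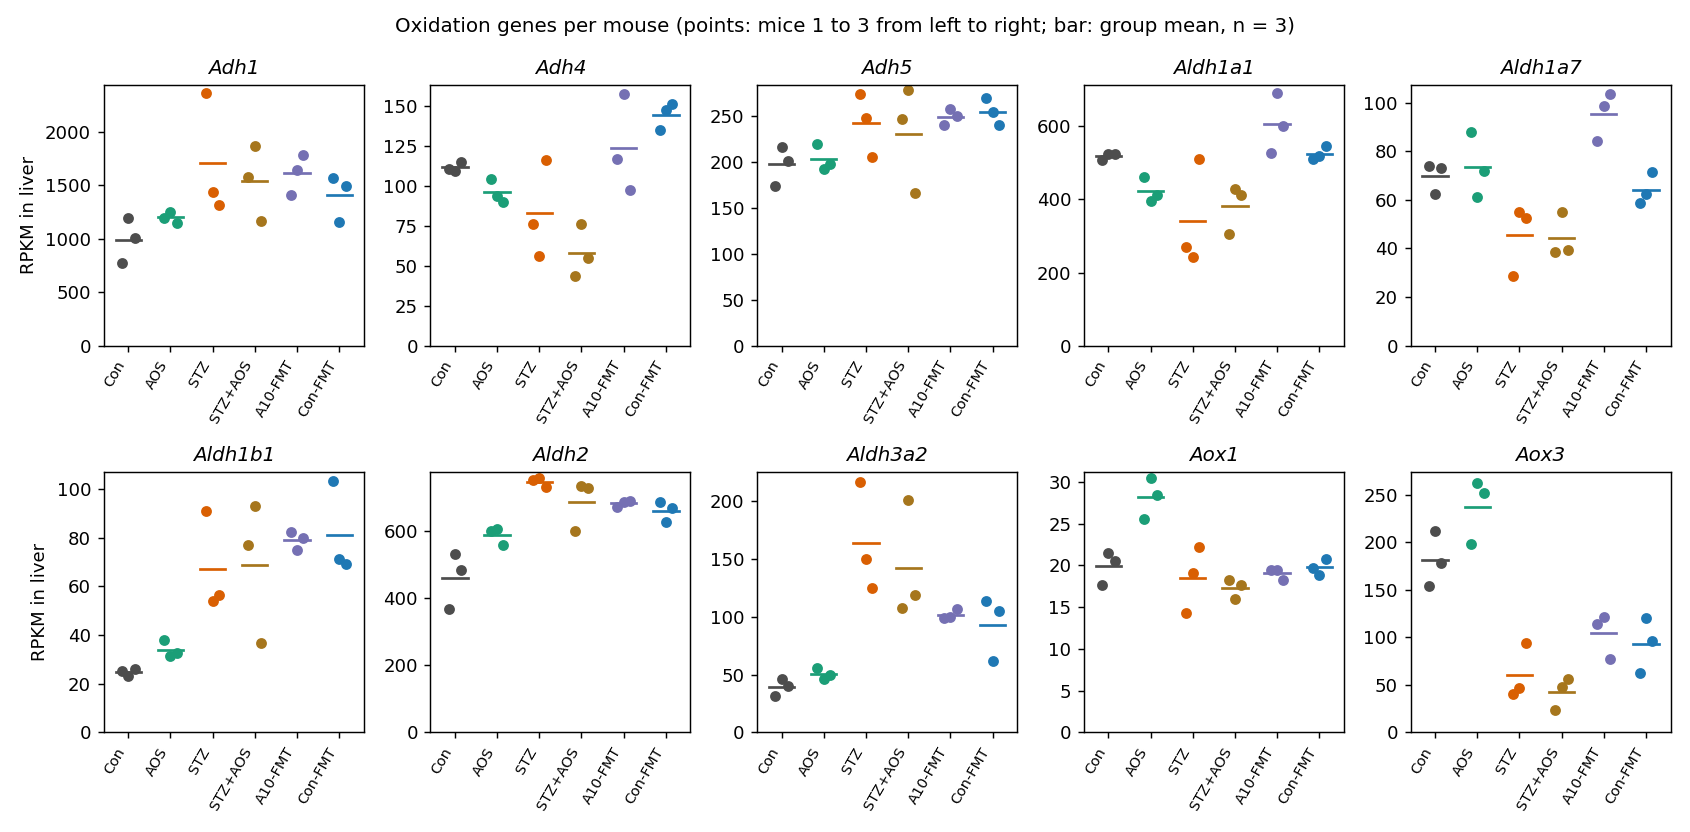
RPKM (y axis, from 0, a separate scale for each gene) of the 10 genes in each mouse of 6 groups, with points for mice 1 to 3 from left to right and a bar for the mean of 3 mice. Aldh1b1 and Aldh3a2 were low in Con and AOS and higher in the STZ groups, and Aox3 was high in Con and AOS (154.5 to 263 RPKM) and lower in all 4 groups that received STZ (23.7 to 121 RPKM).

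STZ against Con moved the genes of this chemistry both ways. Fatty aldehyde dehydrogenase Aldh3a2, the mitochondrial enzymes Aldh1b1 and Aldh2, and Adh1 were higher in STZ, with log2 differences of 2.02, 1.37, 0.71 and 0.75. The aldehyde oxidase Aox3 and the cytosolic enzymes Aldh1a1 and Aldh1a7 were lower, with log2 differences of -1.66, -0.69 and -0.66. Thus 7 of 10 genes were called at an adjusted p under 0.05 (limma on log2(RPKM + 1), Benjamini-Hochberg adjustment over 10602 genes), 4 higher and 3 lower. Of all genes tested, 38.5% were called, 33.0% higher and 5.52% lower. The median log2 difference of the 10 genes was 0.09, and that of all genes was 0.21. The 3 STZ mice and the 3 Con mice did not overlap in 6 of the 10 genes, against 47.7% of all genes.

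Because most genes were higher in STZ than in Con, each difference can be read relative to the median of all genes. Relative to it the log2 difference was 1.80 for Aldh3a2, 1.15 for Aldh1b1, 0.50 for Aldh2 and 0.54 for Adh1, and -1.87 for Aox3, -0.90 for Aldh1a1 and -0.87 for Aldh1a7. Dividing each library by its median ratio to all libraries brought the median of all genes from 0.21 to -0.0097. It changed the calls over all genes from 3502 higher and 585 lower to 1480 higher and 1391 lower. With this scaling 6 of the 10 genes were called, 3 higher and 3 lower, against 27.1% of all genes, and the lost call was Adh1 (log2 difference 0.48, adjusted p = 0.114).

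**Figure D2:**
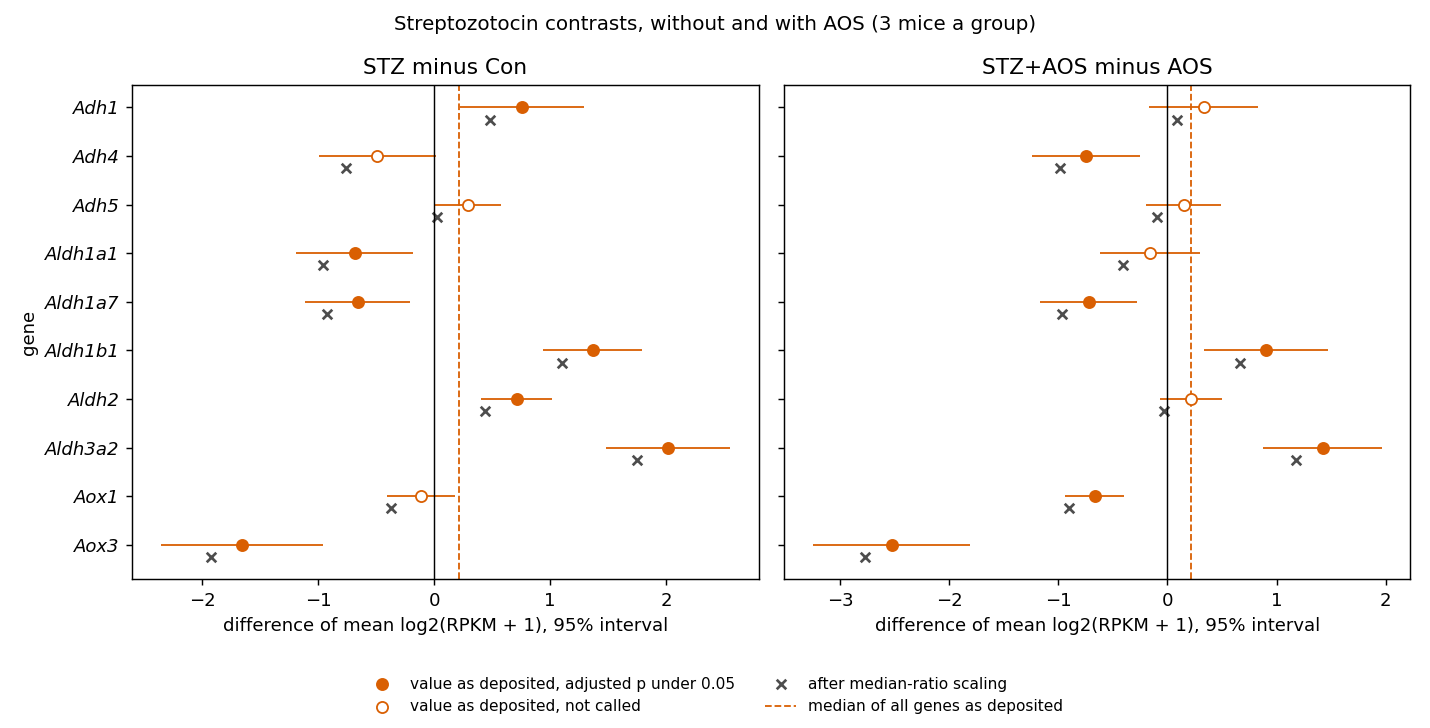
Difference of mean log2(RPKM + 1) with its 95% interval (x axis) for the 10 genes (y axis) in STZ minus Con and in STZ+AOS minus AOS, 3 mice a group; filled circles passed an adjusted p under 0.05, crosses are the same differences after median-ratio scaling, and the dashed line is the median of all genes. Aldh3a2 and Aldh1b1 lay to the right of that line and Aox3 far to the left in both panels.

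Among the alcohol dehydrogenases, Adh1 was measured at 773, 1197 and 1007 RPKM in the Con mice. The STZ mice had 2360.0, 1439.8 and 1314 RPKM, all above the Con mice, with mouse 1 far above the others. The difference of 0.75 (SE 0.24, adjusted p = 0.0314) was among the less stable calls. It was not called without STZ mouse 1 (log2 difference 0.49, adjusted p = 0.107), without Con mouse 1 (0.58, adjusted p = 0.12) or without Con mouse 3 (0.78, adjusted p = 0.0707), nor without a filter on low values (adjusted p = 0.0681).

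Adh4, the class II enzyme, was steady in Con at 111, 109 and 115 RPKM. In STZ it was 76.1, 56.0 and 116 RPKM, so that mice 1 and 2 lay below every Con mouse and mouse 3 above. The log2 difference was -0.49 (SE 0.23, adjusted p = 0.111). Without STZ mouse 3 it was -0.77 (adjusted p = 0.00682), which passed. In that setting 47.4% of all genes were called, 39.8% higher and 7.58% lower, and 9 of the 10 genes were called. Adh5, the class III enzyme that oxidizes glutathione-bound formaldehyde, had 174, 217 and 202 RPKM in Con and 274, 248 and 206 RPKM in STZ. These ranges overlapped, and the log2 difference was 0.29 (SE 0.13, adjusted p = 0.0916). It was 0.41 without STZ mouse 3 (adjusted p = 0.0167).

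Aldh1a1, a cytosolic enzyme that makes retinoic acid from retinal, was 507, 523 and 525 RPKM in Con. It was 269 and 242 RPKM in STZ mice 1 and 2 but 510.3 RPKM in STZ mouse 3, which lay within the Con range. The log2 difference of -0.69 (SE 0.23, adjusted p = 0.0365) became -1.02 (adjusted p = 0.00021) without STZ mouse 3. The call was lost when any of the other 5 mice was left out: without STZ mouse 1 or 2 the log2 differences were -0.56 and -0.48 (adjusted p = 0.116 and 0.146), and without Con mouse 1, 2 or 3 they were -0.70, -0.68 and -0.68 (adjusted p = 0.0808, 0.0766 and 0.0892). It was also lost without a filter on low values (adjusted p = 0.0644).

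Aldh1a7, a mouse paralog of Aldh1a1, was 74.1, 62.6 and 73.1 RPKM in Con and 28.8, 55.2 and 52.4 RPKM in STZ. All STZ mice were below all Con mice, and mouse 1 was the lowest. The log2 difference was -0.66 (SE 0.21, adjusted p = 0.0269). Without STZ mouse 1 it was -0.37 (adjusted p = 0.0506), without Con mouse 1 it was -0.62 (adjusted p = 0.0832) and without Con mouse 3 it was -0.63 (adjusted p = 0.0775), none of which passed. The longest coding transcripts of Aldh1a7 and Aldh1a1 share sequence: 17.3% of the 25-base windows of Aldh1a7, and 7.49% of its 50-base windows, also occur in Aldh1a1. Reads of the pair may thus have been assigned to either gene. No 25-base window was shared between the other members of each family.

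The mitochondrial enzymes were both higher in STZ. Aldh2, the main enzyme for acetaldehyde, was 368, 531 and 484 RPKM in Con and 753, 758 and 732 RPKM in STZ. The STZ values lay close together and all above Con, and the log2 difference was 0.71 (SE 0.14, adjusted p = 0.00328). Aldh1b1, a related mitochondrial enzyme, was 25.3, 23.05 and 26.0 RPKM in Con and 91.2, 54.05 and 56.6 RPKM in STZ. Its lowest STZ mouse was above its highest Con mouse, with a log2 difference of 1.37 (SE 0.20, adjusted p = 0.000818).

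Aldh3a2, the membrane-bound enzyme that oxidizes long-chain fatty aldehydes, showed the largest rise of the 10 genes. It was 31.4, 46.0 and 40.05 RPKM in Con and 216, 149.8 and 125 RPKM in STZ. The groups were far apart, with a ratio of means of 4.18, a log2 difference of 2.02 (SE 0.24) and an adjusted p of 0.00047. The call of Aldh3a2, like those of Aldh1b1, Aldh2 and Aox3, was kept under all 15 alternative settings, and its adjusted p ran from 0.000101 to 0.00354.

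Aox3, the main aldehyde oxidase of mouse liver, fell. It was 154.5, 212 and 179 RPKM in Con and 40.6, 46.8 and 94.5 RPKM in STZ. No STZ mouse reached a Con mouse, and mouse 3 was the highest of the STZ mice. The log2 difference was -1.66 (SE 0.32, adjusted p = 0.00312), and -2.02 without STZ mouse 3 (adjusted p = 0.00027). The neighbouring Aox1 was 17.7, 21.5 and 20.6 RPKM in Con and 14.3, 19.05 and 22.2 RPKM in STZ. These ranges overlapped, and the log2 difference was -0.11 (95% interval -0.41 to 0.18, adjusted p = 0.522).

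The level of Aox3 relative to Aox1 was compared mouse by mouse, since a ratio within a library does not depend on how libraries are scaled. It was 8.73, 9.89 and 8.69 in Con and 2.83, 2.46 and 4.25 in STZ. The groups did not overlap (log2 difference -1.55, exact permutation test, two-sided, p = 0.1, adjusted over 8 comparisons 0.267). A ratio of 8.42 ± 0.568 in AOS and 2.49 ± 1.04 in STZ+AOS (SD, n = 3) gave the same picture of separate groups (log2 difference -1.86, exact permutation p = 0.1, adjusted 0.267). Its range in the A10-FMT mice was 4.22 to 6.25, and Con-FMT mice had 3.15 to 6.39, overlapping STZ in both (exact permutation p = 0.2, adjusted 0.32, for each). For Aldh1a7 over Aldh1a1 the ratio was 0.135 ± 0.0138 in Con and 0.146 ± 0.0711 in STZ (SD, n = 3), with a log2 difference of 0.01 (exact permutation p = 1.0, adjusted 1.0). In STZ+AOS it was 0.0959 to 0.129 and in AOS 0.154 to 0.191, without overlap (exact permutation p = 0.1, adjusted 0.267).

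**Figure D3:**
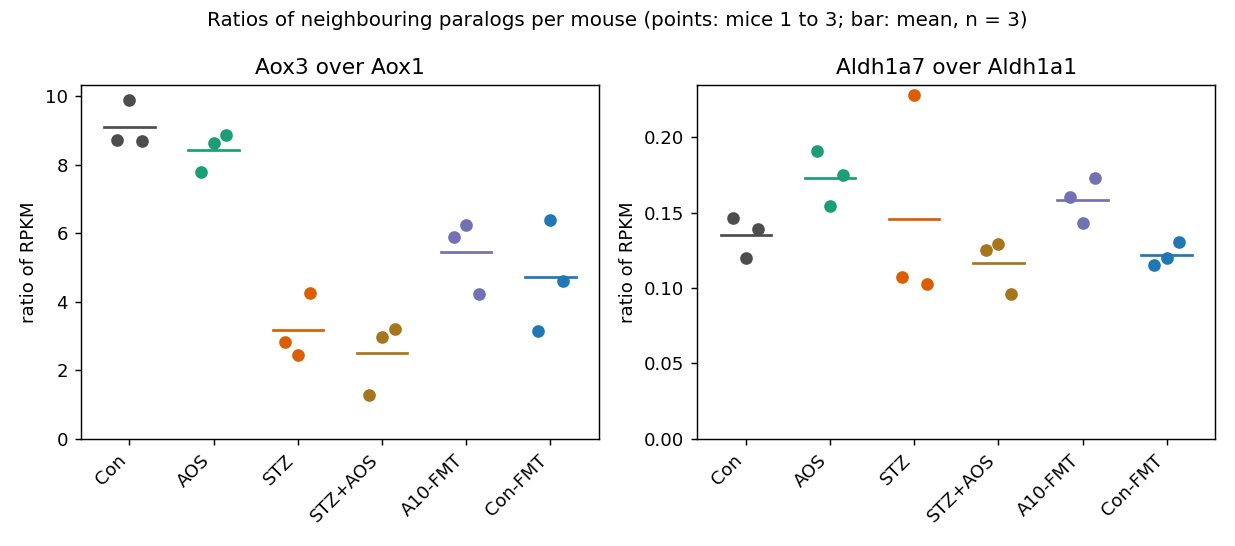
Ratio of RPKM (y axis, from 0) of Aox3 to Aox1 and of Aldh1a7 to Aldh1a1 in each mouse of 6 groups, with points for mice 1 to 3 and a bar for the mean. Aox3 was 7.78 to 9.89 times Aox1 in the mice without STZ and 1.29 to 6.39 times Aox1 in those with STZ, while STZ mouse 2 (0.228) stood above all other mice in the ratio of Aldh1a7 to Aldh1a1.

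The transplanted groups were compared with STZ next, to ask which genes differed after a transplant. The methods name no sham dosing of the STZ group, so effects of microbiota and of oral dosing cannot be told apart. None of the 10 genes was called in A10-FMT against STZ or in Con-FMT against STZ, where 0.226% and 0.00943% of all genes were called. At an unadjusted p under 0.05 there were 5 and 4 of the 10 genes, against 20.9% and 20.1% of all genes. The groups did not overlap in 4 of the 10 genes in each, against 21.5% and 17.7% of all genes. These 2 comparisons share the STZ mice, and so do all differences given for them.

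Aldh1a7 came nearest in A10-FMT, at 84.4, 98.6 and 104 RPKM against 28.8, 55.2 and 52.4 RPKM in STZ. All A10-FMT mice were above all STZ mice and also above the 3 Con mice, whose highest value was 74.1 RPKM. The log2 difference from STZ was 1.10 (SE 0.21, adjusted p = 0.0548), with 1.17 (adjusted p = 0.0461) after median-ratio scaling. In Con-FMT, Aldh1a7 was 58.9, 62.2 and 71.3 RPKM, also without overlap with STZ, with a log2 difference of 0.54 (SE 0.21, adjusted p = 0.181).

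Aldh1a1 was 526, 691 and 600.1 RPKM in A10-FMT, each above the highest STZ mouse, and 510.2, 518 and 546 RPKM in Con-FMT. The log2 differences from STZ were 0.90 (SE 0.23, adjusted p = 0.0829) and 0.70 (SE 0.23, adjusted p = 0.137). Adh4 was 117, 158 and 97.2 RPKM in A10-FMT and 135, 147 and 151 RPKM in Con-FMT, the latter above all STZ mice. Its log2 differences were 0.61 (SE 0.23, adjusted p = 0.177) and 0.86 (SE 0.23, adjusted p = 0.1).

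Aox3 and Aldh3a2 lay between STZ and Con in both transplanted groups. Aox3 was 114, 121 and 77.0 RPKM in A10-FMT and 62.1, 120.5 and 96.1 RPKM in Con-FMT, with log2 differences from STZ of 0.84 (SE 0.32, adjusted p = 0.177) and 0.66 (SE 0.32, adjusted p = 0.273). Aldh3a2 was 98.8, 99.9 and 107 RPKM in A10-FMT and 113, 61.6 and 105 RPKM in Con-FMT. All of these Aldh3a2 values were below the lowest STZ mouse, and the log2 differences were -0.64 (SE 0.24, adjusted p = 0.178) and -0.82 (SE 0.24, adjusted p = 0.115).

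The log2 differences from STZ were smaller in the other genes than in those above. For Aldh1b1 the A10-FMT mice had 75.0 to 82.4 RPKM, the Con-FMT mice 69.3 to 103 RPKM, overlapping STZ, with log2 differences of 0.27 (95% interval -0.16 to 0.70) and 0.28 (-0.14 to 0.71). For Aldh2 they had 672 to 692 RPKM and 627 to 687 RPKM, below all STZ mice, with log2 differences of -0.13 (-0.43 to 0.18) and -0.18 (-0.48 to 0.13). Adh1 was 1413 to 1782 RPKM and 1161 to 1570.3 RPKM, Adh5 was 240.2 to 258 RPKM and 240.3 to 269.6 RPKM, and Aox1 was 18.3 to 19.4 RPKM and 18.9 to 20.8 RPKM. Each overlapped the STZ range, and the size of their log2 differences from STZ was at most 0.24 (Adh1 in Con-FMT, -0.24).

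These results turned on STZ mouse 3. As the STZ mouse most often nearest to Con, its removal favours by construction calls that point toward Con. Without STZ mouse 2, 0 of the 10 genes and 0 of all genes were called in either comparison. Leaving out STZ mouse 3 raised the calls over all genes as well. They rose to 12.7% in A10-FMT against STZ (3.78% higher and 8.91% lower) and to 15.5% in Con-FMT against STZ (5.62% higher and 9.84% lower). With STZ mouse 3 left out, 4 of the 10 genes were called in A10-FMT against STZ, all higher: Aldh1a1 (log2 difference 1.23, adjusted p = 0.000539), Aldh1a7 (1.23, adjusted p = 0.00763), Adh4 (0.88, adjusted p = 0.0145) and Aox3 (1.21, adjusted p = 0.018). In Con-FMT against STZ, Aldh1a1 (1.04, adjusted p = 0.00109), Adh4 (1.13, adjusted p = 0.00451) and Aox3 (1.02, adjusted p = 0.0296) were then higher and Aldh3a2 (-0.99, adjusted p = 0.0268) lower. Without STZ mouse 1, Aldh1a7 alone was called in A10-FMT against STZ (0.81, adjusted p = 0.0271), against 1.07% of all genes. The 2 transplants did not differ by a call in any of the 10 genes, as in 0% of all genes. The nearest was Aldh1a7, higher in A10-FMT without overlap (log2 difference 0.57, 95% interval 0.12 to 1.02, adjusted p = 0.999), and 1 of the 10 genes had an unadjusted p under 0.05, against 2.86% of all genes. The 2 transplants were without overlap in 1 of the 10 genes, against 8.92% of all genes.

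**Figure D4:**
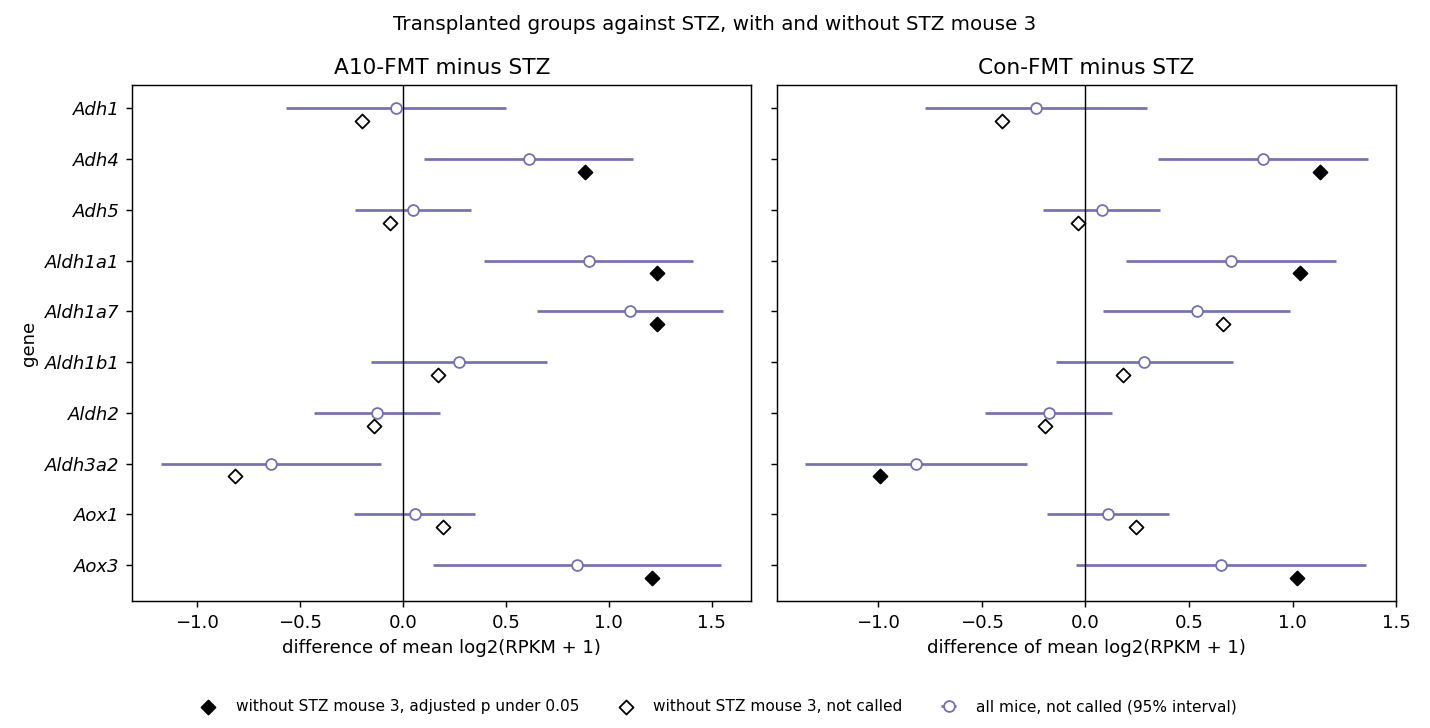
Difference of mean log2(RPKM + 1) (x axis) of the 10 genes (y axis) in A10-FMT minus STZ and Con-FMT minus STZ, as circles with 95% intervals for all mice and as diamonds without STZ mouse 3, filled where the adjusted p was under 0.05. No circle passed, and 4 diamonds passed in each panel, in a setting that called 12.7% and 15.5% of all genes. That setting leaves out the STZ mouse most often nearest to Con.

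Set against Con, the higher levels of Aldh1b1 and Aldh3a2 were still present in both transplanted groups. In A10-FMT against Con, 3 of the 10 genes were called, all higher: Aldh1b1 (log2 difference 1.64, adjusted p = 0.00096), Aldh3a2 (1.37, adjusted p = 0.00578) and Aldh2 (0.58, adjusted p = 0.0181). Of all genes 18.4% were called, 15.9% higher and 2.47% lower. A10-FMT and Con did not overlap in 8 of the 10 genes, against 48.9% of all genes. In Con-FMT against Con the same 3 genes were higher, with log2 differences of 1.65 (adjusted p = 0.00113), 1.20 (adjusted p = 0.0105) and 0.53 (adjusted p = 0.025), and Aox3 was lower (-1.001, adjusted p = 0.0483). There 19.4% of all genes were called, 17.5% higher and 1.89% lower. For A10-FMT the log2 difference of Aox3 from Con was -0.81 (adjusted p = 0.0955), with all A10-FMT mice below all Con mice.

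The calls of Aldh1b1 and Aldh3a2 in these comparisons were kept under all 15 alternatives. Median-ratio scaling, which brought the median of all genes from 0.16 to -0.0034 in A10-FMT and from 0.19 to 0.0038 in Con-FMT, ended the call of Aldh2 in both (log2 differences 0.38, adjusted p = 0.0523, and 0.31, adjusted p = 0.113). With it the calls over all genes went from 1691 higher and 262 lower to 665 and 490 in A10-FMT, and from 1859 higher and 200 lower to 519 and 347 in Con-FMT. Aldh2 in A10-FMT was also not called without A10-FMT mouse 1, 2 or 3 (adjusted p = 0.0552, 0.0523 and 0.0678) or without Con mouse 1 or 3 (0.0621 and 0.051). In Con-FMT it was not called without Con-FMT mouse 1 or 3 (adjusted p = 0.0866 and 0.0697) or Con mouse 1 or 3 (0.0846 and 0.0615). Aox3 in Con-FMT lost its call in 10 of 15 alternatives, among them the scaling (-1.22, adjusted p = 0.0573) and leaving out Con-FMT mouse 1 or 3 (adjusted p = 0.185 and 0.0908) or Con mouse 1, 2 or 3 (adjusted p = 0.0947, 0.121 and 0.111).

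The AOS groups asked whether the oligosaccharide alone acts on these genes. In AOS against Con none of the 10 genes was called, against 0.00924% of all 10822 genes in the model of 6 groups. Aox1 was 25.5, 30.4 and 28.5 RPKM in AOS and so above all 3 Con mice (17.7 to 21.5 RPKM), with a log2 difference of 0.48 (SE 0.13, adjusted p = 0.512). Aldh2 was 601, 608 and 559.5 RPKM in AOS, also without overlap with Con (log2 difference 0.37, SE 0.13, adjusted p = 0.62). These were the 2 genes of the 10 with an unadjusted p under 0.05, against 7.22% of all genes. The groups did not overlap in 6 of the 10, against 24.4% of all genes. In STZ+AOS against STZ none of the 10 genes was called, as in 0% of all genes, none had an unadjusted p under 0.05, against 6.07% of all genes, and none was without overlap, against 5.13% of all genes.

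In STZ+AOS against AOS, 6 of the 10 genes were called, against 37.9% of all genes. These groups did not overlap in 5 of the 10 genes, against 49.1% of all genes. Aldh3a2 and Aldh1b1 were higher (31.8% of all genes were higher), and Aox3, Aox1, Adh4 and Aldh1a7 were lower (6.11% of all genes were lower). Aldh3a2 was 108, 201 and 119 RPKM in STZ+AOS and 56.05, 46.3 and 49.8 RPKM in AOS, a log2 difference of 1.42 (SE 0.26, adjusted p = 0.00102). Aldh1b1 was 77.2, 92.9 and 36.6 RPKM in STZ+AOS and 37.8, 31.4 and 32.6 RPKM in AOS, so that mouse 3 lay within the AOS range (log2 difference 0.90, SE 0.27, adjusted p = 0.0164). The call of Aldh1b1 was lost with median-ratio scaling (0.66, adjusted p = 0.0725), without STZ+AOS mouse 1 or 2 (adjusted p = 0.059 and 0.0725) and without AOS mouse 2 (0.0563).

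Both aldehyde oxidases were lower in STZ+AOS than in AOS. Aox3 was 23.7, 47.7 and 56.5 RPKM against 199, 263 and 252 RPKM, the largest difference of the 10 genes in any comparison (log2 difference -2.53, SE 0.34, adjusted p = 0.00019). Aox1 was 18.3, 16.0 and 17.6 RPKM against 25.5, 30.4 and 28.5 RPKM (log2 difference -0.67, SE 0.13, adjusted p = 0.00133). Neither gene overlapped, and both calls were kept under all 14 alternatives. Adh4 was 43.6, 76.2 and 55.1 RPKM in STZ+AOS and 104, 93.7 and 90.2 RPKM in AOS (log2 difference -0.75, SE 0.23, adjusted p = 0.0207). Aldh1a7 was 38.5, 55.1 and 39.6 RPKM in STZ+AOS and 88.0, 61.1 and 72.0 RPKM in AOS (log2 difference -0.72, SE 0.21, adjusted p = 0.0149).

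The calls of Adh4 and Aldh1a7 in STZ+AOS against AOS were lost when any of several mice was left out. In these smaller fits the log2 difference of Adh4 was -0.56 to -0.76, and that of Aldh1a7 -0.59 to -0.65. Without STZ+AOS mouse 1 or 3 the adjusted p was 0.0889 and 0.0515 for Adh4 and 0.0515 and 0.05 for Aldh1a7. Without AOS mouse 1 it was 0.0631 and 0.0647, and for Adh4 without AOS mouse 2 it was 0.0506. Median-ratio scaling brought the median of all genes from 0.21 to 0.012 in this comparison, left 5 of the 10 genes called, 1 higher and 4 lower, against 24.5% of all genes, and changed the calls over all genes from 3441 higher and 661 lower to 1323 and 1325.

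Whether STZ acted differently with and without AOS was tested as the difference between STZ+AOS against AOS and STZ against Con. None of the 10 genes was called, as in 0% of all genes. Aox1 had the smallest unadjusted p (0.00706, adjusted p = 0.856), with a difference of -0.55 (SE 0.18) on the log2 scale. Aldh2 followed with -0.50 (SE 0.19, adjusted p = 0.856), and these were the 2 genes of the 10 with an unadjusted p under 0.05, against 5.40% of all genes. For Aox3 the difference was -0.87, with a 95% interval from -1.89 to 0.15.

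Other genes of the same chemistry were read from 4 lists. Of all genes, 33.0% were higher and 5.52% lower in STZ against Con, with a median log2 difference of 0.21. After median-ratio scaling 27.1% of all genes were called, and 39.8% were higher and 7.58% lower without STZ mouse 3. The counts of each list are to be read beside these shares. Of 20 further alcohol and aldehyde dehydrogenases, 11 passed the filter on low values, and in STZ against Con 8 were higher and 0 lower, with a median log2 difference of 0.43. The 4 with the smallest adjusted p were Aldh8a1 (log2 difference 0.69, adjusted p = 0.00128), Aldh6a1 (0.80, adjusted p = 0.00232), Aldh5a1 (0.63, adjusted p = 0.00375) and Aldh16a1 (0.69, adjusted p = 0.0238). Aldh8a1 acts in tryptophan breakdown, Aldh6a1 in that of valine and Aldh5a1 in that of GABA. After median-ratio scaling 3 were higher and 0 lower, and without STZ mouse 3 it was 6 higher and 0 lower.

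Genes of the molybdenum cofactor on which Aox1 and Aox3 depend moved much as all genes did. Their median log2 difference in STZ against Con was 0.25, and that of all genes was 0.21. Over all genes 33.0% were higher and 5.52% lower. Of 11 listed, 9 were found and 7 tested, with 3 higher and 0 lower. These were Mocs1 (log2 difference 0.59, adjusted p = 0.00233) and Mocs2 (0.77, adjusted p = 0.0123), which make the cofactor precursor and its dithiolene, and Suox, sulfite oxidase (0.72, adjusted p = 0.00683). Mocos, the sulfurase that aldehyde oxidases need to be active, had a log2 difference of -0.33 (adjusted p = 0.0839). Xdh, the related xanthine dehydrogenase, had 0.13 (adjusted p = 0.473). After median-ratio scaling 2 were higher and 1 lower, and without STZ mouse 3 it was 3 higher and 1 lower.

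Of 32 genes of retinoid storage, transport, conversion and response, 24 were tested, and 11 were higher and 2 lower in STZ, with a median log2 difference of 0.42. Over all genes 33.0% were higher and 5.52% lower, with a median of 0.21. Rdh16, a retinol dehydrogenase, went from 9.39 to 41.5 RPKM (means of 3 mice, log2 difference 2.04, adjusted p = 0.00102), and its relative Rdh9 from 5.37 to 52.3 RPKM (2.74, adjusted p = 0.0031). Rdh13 (0.75, adjusted p = 0.00288) and Rarb, a retinoic acid receptor (0.86, adjusted p = 0.00269), completed the 4 with the smallest adjusted p. After median-ratio scaling 6 were higher and 2 lower, and without STZ mouse 3 it was 13 higher and 1 lower.

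Of 16 genes of other ethanol, carbonyl and acetate steps, 14 were tested, and 9 were higher and 1 lower, with a median of 0.59. The shares over all genes were 33.0% higher and 5.52% lower, with a median of 0.21. Acss3, a mitochondrial acyl-CoA synthetase, had a log2 difference of 1.97 (adjusted p = 0.000424), the carbonyl reductase Cbr1 2.56 (adjusted p = 0.000471) and Hadhb, of mitochondrial fatty acid oxidation, 1.11 (adjusted p = 0.00117). Akr1b7, an aldo-keto reductase, was listed at 0 in the Con mice and had a mean of 17.3 RPKM in STZ (adjusted p = 0.00175). After median-ratio scaling 5 were higher and 2 lower, and without STZ mouse 3 it was 9 higher and 1 lower.

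In both transplanted groups against STZ, 0 genes of the 4 lists were called, against 0.226% (A10-FMT) and 0.00943% (Con-FMT) of all genes. Without STZ mouse 3, the retinoid list had 0 higher and 3 lower in A10-FMT and 2 higher and 5 lower in Con-FMT, the list of other ethanol, carbonyl and acetate steps 1 higher and 3 lower in each, the molybdenum list 1 higher in Con-FMT, and the dehydrogenase list 0 in both, in a setting that called 12.7% (A10-FMT) and 15.5% (Con-FMT) of all genes. In STZ+AOS against AOS 31.8% of all genes were higher and 6.11% lower, and 24.5% were called after median-ratio scaling. There the dehydrogenase list had 3 higher and 0 lower, and 0 of either after median-ratio scaling. The molybdenum list had 3 higher and 0 lower, and 0 higher and 1 lower after the scaling. The retinoid list had 9 higher and 2 lower, and 6 and 4 after it. The list of other steps had 6 higher and 2 lower, and 4 and 2 after it.

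Markers of liver zones and of other cells were read beside these genes. The sum of 7 periportal hepatocyte markers was 3275 to 4298 RPKM in Con and 6683 to 8110.3 RPKM in STZ, and that of 8 pericentral markers 2824 to 3833 RPKM and 4619 to 7000.2 RPKM, neither with overlap. Most of the pericentral sum was Cyp2e1, with means of 2183 RPKM in Con and 3856 RPKM in STZ. In STZ against Con 6 of the 7 periportal markers were higher and 1 lower, and 5 of the 8 pericentral markers were higher and 1 lower. Of all genes 33.0% were higher and 5.52% lower, and 47.7% were without overlap. Median-ratio scaling left 4 periportal markers higher and 1 lower, and 1 pericentral marker higher and 1 lower, with 27.1% of all genes called. The 8 hepatocyte markers summed to 47120 to 66860 RPKM in Con and 39684 to 48616 RPKM in STZ, with 3 higher and 4 lower. Stellate cell markers (9 genes) summed to 110 to 147 RPKM in Con and 168 to 209 RPKM in STZ, with 1 of 9 called, higher, and Kupffer cell and macrophage markers (10 genes) to 125 to 193 RPKM and 187 to 369 RPKM, with 2 of 10 called, higher, against 33.0% of all genes. After median-ratio scaling 0 stellate and 1 Kupffer cell marker were called. Their part in the changes of the oxidation genes was not tested.

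Markers of the remaining cell types were low or mixed, in a comparison with 33.0% of all genes higher and 5.52% lower. Sinusoidal endothelial markers (8 genes) summed to 55.1 to 64.1 RPKM in Con and 63.7 to 78.4 RPKM in STZ, with 2 of 8 higher. Cholangiocyte markers (6 genes, 3 tested, 1 lower) were 23.1 to 41.2 RPKM and 21.3 to 41.5 RPKM. Markers of T cells, B cells and neutrophils (9 genes, 2 tested, 1 lower) reached at most 11.2 RPKM in Con and 3.98 RPKM in STZ. Erythroid markers (6 genes, 4 tested, 1 lower) were 1256 to 1972 RPKM and 470.0 to 1874 RPKM. In the transplanted groups the erythroid sum was 1401 to 2863 RPKM (A10-FMT) and 2344 to 9168 RPKM (Con-FMT), so that every Con-FMT library lay above every Con and STZ library. The hepatocyte sum of A10-FMT, 50800 to 57086 RPKM, lay above that of STZ without overlap, and that of Con-FMT, 39303 to 51914 RPKM, overlapped it. The part of these markers in the differences of the transplanted groups from STZ was not tested.

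The genes most like Aldh3a2 over the 18 libraries, by Pearson's r of log2(RPKM + 1), were Idh2 (0.98), a mitochondrial isocitrate dehydrogenase, Atp5a1 (0.98), a subunit of ATP synthase, and Acadl (0.97), an acyl-CoA dehydrogenase. Those most like Aox3 were Slc22a30 (0.97), Inhbc (0.97) and Slc22a28 (0.97). The libraries fall into groups that differ in the level of Aldh3a2 and Aox3, and any gene with a similar difference between groups has a high r, so the values are a description.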

How the data were processed

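Liver RNA of 18 mice, 3 in each of 6 groups named by the labels, was used. By the methods of the study, poly(A) RNA was sequenced on an Illumina HiSeq instrument, mapped to reference genes with SOAPaligner, and the read number of each gene turned into RPKM; the labels list Bowtie 0.12.2 and the build mm10. The authors deposited 1 table of RPKM with 19057 rows, and its 18 columns were matched to samples by title. Reads that fit several genes may have been shared between paralogs. Depth in reads is unknown, so that no counting interval is given.

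The 10 genes and the lists beside them were chosen with earlier results of these data known. All 10 passed the filter, at least 1 RPKM in at least 3 libraries of a fit. Group means of log2(RPKM + 1) were fitted to all genes by limma (version 3.58.1, R version 4.3.3) with moderated, two-sided tests and a mean-variance trend. The p-values of each contrast were adjusted over its whole set of genes (Benjamini-Hochberg). Fold changes of low genes are understated on this scale. Calls required an adjusted p under 0.05. Con, STZ, A10-FMT and Con-FMT were fitted together (12 libraries, 10602 genes), and contrasts of AOS and STZ+AOS in a fit of all 6 groups (10822 genes). DEGseq, which the study used, needs read numbers and was not run. The procedure was tested on simulated data.

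No 2 libraries held identical values, and libraries of a group correlated at 0.951 to 0.996 (Pearson's r of log2 values). Mice share the numbers 1 to 3 across groups, and the labels give them no meaning. The deviations of same-numbered mice from their group means correlated above 0.1 for every number only between A10-FMT and Con-FMT (0.12, 0.29 and 0.18), and the fit with the number as a block gave 0 calls there, as without it.

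Genes named in the text are the 10 genes in every comparison, at most 4 called genes of each list (by adjusted p, STZ against Con), and the 3 genes most like Aldh3a2 and Aox3. Mocos and Xdh were chosen after their values were seen. The table held 26 symbols turned into dates, and none was used, so that Marc1 and Marc2 of the molybdenum list were not matched. Some genes stand in more than 1 list, Cyp2e1 among them. Promoters come from RefSeq (GRCm38.p6) and positions from GENCODE M21, by symbol. Alternatives were median-ratio scaling, quantile normalization, a pseudocount of 0.1, other filters on low values, no trend, other groups in the fit, a replicate block and leaving out each mouse. The counts of the lists with median-ratio scaling and without STZ mouse 3 were added after seeing the data.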

Additional observations from a re-analysis of the deposited data

How the results depend on the processing

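Over all comparisons no difference of the 10 genes that was called changed its sign under any alternative. Counts of called genes moved as follows. In STZ against Con (7 genes) the count was 4 with the compared groups alone, 4 to 9 when 1 mouse was left out, and 6 with a replicate block. Without a filter on low values it was 5, and Adh1 (adjusted p = 0.0681) and Aldh1a1 (adjusted p = 0.0644) lost their calls. The calls over all genes in this comparison moved with it, from 4087 to 2651 with the compared groups alone, 3750 without the filter, 3714 with a replicate block and 2562 to 5012 without 1 mouse. In A10-FMT against STZ (0 genes) it was 1 with median-ratio scaling, with at least 1 RPKM in every library and with all 6 groups, each time Aldh1a7, and 0 to 4 when 1 mouse was left out. In Con-FMT against STZ (0 genes) it was 0 to 4 when 1 mouse was left out. In A10-FMT against Con (3 genes) it was 7 with the compared groups alone and 2 to 3 when 1 mouse was left out. In Con-FMT against Con (4 genes) it was 2 with median-ratio scaling and with quantile normalization, 2 to 4 when 1 mouse was left out and 3 with a replicate block. In STZ+AOS against AOS (6 genes) it was 3 to 6 when 1 mouse was left out. Over all genes the calls of A10-FMT against STZ went from 24 to 77, 44 and 53 under the 3 settings named and to 0 to 1343 without 1 mouse, those of Con-FMT against STZ from 1 to 0 to 1636 without 1 mouse, those of A10-FMT against Con from 1953 to 3355 with the compared groups alone, and those of Con-FMT against Con from 2059 to 866 (median-ratio scaling) and 824 (quantile normalization). A replicate block changed 2 calls, Adh1 in STZ against Con (adjusted p = 0.0554) and Aox3 in Con-FMT against Con (adjusted p = 0.0568). Deviations of same-numbered mice correlated at -0.14 to -0.064 in STZ against Con and at -0.14 to 0.011 in Con-FMT against Con. With 3 mice a group this check shows no pairing by number but cannot exclude it. The other comparisons gave 0 genes under every alternative. The cause of these movements was not tested. Compared groups alone and fits without a mouse use fewer libraries. The depth in reads is unknown, and with 3 mice a group an exact permutation test cannot give a p below 0.1.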
